A study of Mus musculus with 8 samples.

Results

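Liver X receptors (LXR) and the genes they control in cholesterol export were followed in mouse macrophages loaded with acetylated low-density lipoprotein (acLDL). The set held 10 genes chosen by name: the exporters Abca1 and Abcg1, the receptors Nr1h3 and Nr1h2, the secreted or surface lipoprotein genes Apoe, Lpl and Pltp, and the targets Arl4c, Smpdl3a and Lpcat3. Of these, 8 had a probe set that names a single gene, 1 probe set each, among 19938 genes tested. Nr1h2 and Arl4c were not matched in the probe annotation used here and were not analysed here.

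Macrophages of C57BL/6J mice were collected from the peritoneum 5 days after a thioglycollate injection, which draws monocytes into the cavity. Both groups were then cultured in the same serum-containing medium, 4 cultures without acLDL (unloaded) and 4 with it. The sample protocols give 20 µg/mL acLDL for 3 days, whereas the series description gives 50 µg/mL for 2 days, so dose and time are not settled. The sources used here give no age or sex of the mice and do not say which mice gave which culture, so the p-values measure the spread between these cultures. Each culture was read on 1 whole-transcript array, and all values below are deposited log2 expression values.

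LXR alpha (Nr1h3) and LXR beta (Nr1h2) are nuclear receptors that bind oxysterols and the sterol precursor desmosterol. They sit on DNA as partners of the retinoid X receptors, with corepressors when no ligand is bound and with coactivators once it is. In macrophages their known targets move cholesterol out of the cell to apolipoproteins and high-density lipoprotein and remodel lipoproteins and membrane phospholipids, and in mice and humans they include the exporter genes. Many LXR elements are direct repeats of a hexamer spaced by 4 bases, called DR4. acLDL enters macrophages through scavenger receptors and delivers cholesterol to the lysosome.

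The promoter of Abca1 is shown because Abca1 changed the most of the measured genes and its window holds the one DR4-like match found among the measured genes. It is the RefSeq window of build GRCm38.p6 at chr4:53159846-53160145, minus strand, from 250 bases before to 50 bases after the transcript start, printed 5′ to 3′ in the direction of the gene, with the match in capitals.
Abca1 promoter: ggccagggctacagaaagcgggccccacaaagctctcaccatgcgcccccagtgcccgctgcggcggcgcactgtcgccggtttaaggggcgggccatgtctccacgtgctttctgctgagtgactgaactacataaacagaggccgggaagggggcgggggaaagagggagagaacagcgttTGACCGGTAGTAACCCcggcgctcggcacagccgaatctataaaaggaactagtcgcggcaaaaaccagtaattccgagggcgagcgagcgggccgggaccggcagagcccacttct
Abca1 DR4 match, opposite strand, hexamers in capitals: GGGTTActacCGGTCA
The motif searched on both strands was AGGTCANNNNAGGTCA, and this match begins 67 bases before the start and differs from it at 3 of the 12 hexamer bases. Matches that good were common, present in 21.9% of all 32851 promoter windows of the same length. With at most 2 differences 3.02% of windows held a match, and 0 of the 10 windows of the 7 set genes with a RefSeq window did. The Abca1 window also held an E-box (CACGTG, in 7.15% of windows) 147 bases before the start and GC boxes (GGGCGG on either strand, in 35.7% of windows) 163 and 97 bases before it. The windows of Nr1h3, Nr1h2 and Apoe held none of the 3 motifs, and those of Pltp and Lpcat3 held GC boxes alone. Arl4c, which was not measured, was the other gene with a DR4 match at 3 differences. These are letter matches in short windows and say nothing of binding there or elsewhere in these genes.

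Loading with acLDL raised both exporter genes, the LXR alpha gene and the 3 lipoprotein genes. Of the 8 measured genes 6 rose, 0 fell and 2 did not pass an adjusted p of 0.05 (limma with Benjamini-Hochberg adjustment over all genes). Over all genes tested 23.3% passed in either direction and 12.9% passed as higher. Of the 11653 genes above the background defined below, 38.5% passed in either direction when tested alone. The 8 measured genes were among them, and 6 rose. The 4 acLDL arrays lay apart from the 4 unloaded arrays in 7 of the 8 genes, against 25.6% of all genes. The median log2 difference was 0.39 over the 8 genes and 0.00 over all genes. The array reads the whole culture, so more transcript per cell and more cells that express a gene cannot be told apart.

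**Figure D1:**
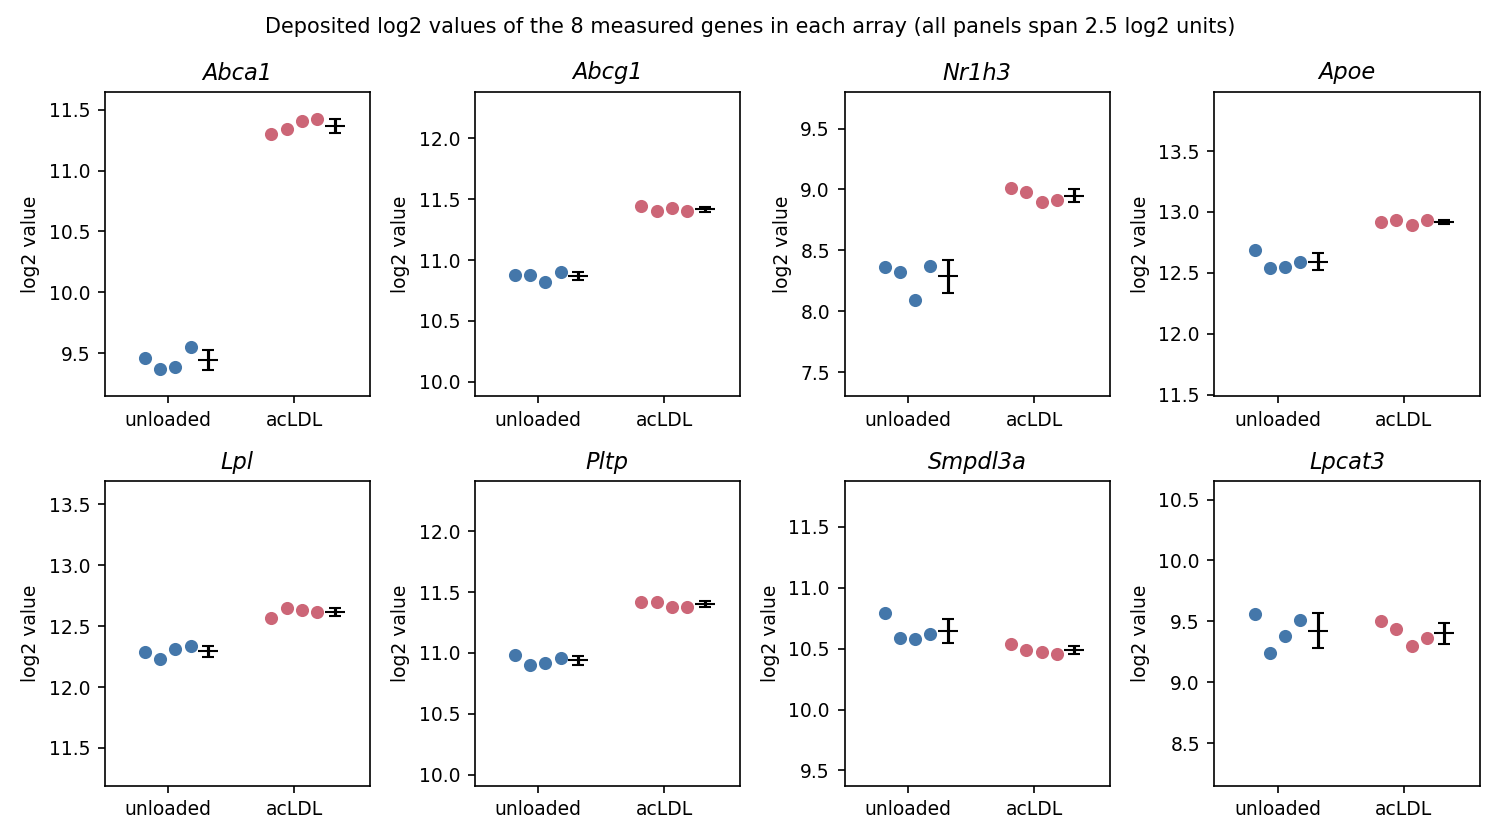
Deposited log2 values of the 8 measured genes in each array, with unloaded arrays in blue, acLDL arrays in red, and the mean with its SD (n = 4) beside each group. Every panel spans the same range of log2 units, so the step of 1.93 in Abca1 can be set by eye against 0.55 in Abcg1 and -0.02 in Lpcat3.

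Abca1 encodes the transporter that passes phospholipid and cholesterol to lipid-poor apolipoprotein A-I. Its log2 values were 9.46, 9.37, 9.39 and 9.55 in unloaded arrays 1 to 4. In acLDL arrays 1 to 4 they were 11.30, 11.34, 11.41 and 11.42. The groups were separated by 1.75 between the highest unloaded and the lowest acLDL array, many times the range inside either group (0.18 and 0.11). Abca1 was 3.81-fold higher with acLDL (95% interval 3.46 to 4.19; log2 difference 1.93 ± 0.06 SE; limma adjusted p = 7.71e-10). Of all 19938 genes only 3 rose further.

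Abcg1 encodes the half-transporter associated with export to mature high-density lipoprotein and with sterol movement inside the cell. Unloaded arrays 1 to 4 read 10.88, 10.88, 10.82 and 10.90. The acLDL arrays read 11.44, 11.40, 11.43 and 11.40. Both groups were tight, with ranges of 0.07 and 0.04, and did not overlap. The rise was 1.46-fold (95% interval 1.34 to 1.59; log2 difference 0.55 ± 0.06 SE; limma adjusted p = 1.74e-05), which placed Abcg1 at rank 335 among the rises.

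The measured rises of the 2 exporters were unequal on the log2 scale. The rise of Abca1 exceeded that of Abcg1 by 1.38 ± 0.05 (SE, n = 4 arrays per group; 95% interval 1.26 to 1.50), and the within-array difference was higher in each acLDL array than in any unloaded array. Its two-sided exact permutation p was 0.0286, the smallest that 4 arrays against 4 can give, and 0.0571 after adjustment over the 2 pairs compared, which misses the threshold. The adjusted p could have passed only if both pairs had reached that smallest p, so the test could not decide for this pair alone. The array summary compresses differences to an unknown and probe-dependent extent, so these are differences in measured change.

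Nr1h3, the LXR alpha gene, also rose. Its values were 8.36, 8.32, 8.09 and 8.37 in unloaded arrays 1 to 4 and 9.01, 8.98, 8.90 and 8.91 in acLDL arrays 1 to 4. Unloaded array 3 was the low one, and the highest unloaded array still lay 0.52 below the lowest acLDL array. The change was 1.58-fold (95% interval 1.42 to 1.77; log2 difference 0.66 ± 0.07 SE; limma adjusted p = 3.01e-05), rank 186 among the rises. Without unloaded arrays 1 and 4 the log2 difference was 0.75, and without unloaded arrays 2 and 3 it was 0.58. Human LXR alpha is known to regulate its own gene, while in mouse cells that is less clear. No comparison with LXR beta was possible here.

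Pltp encodes the phospholipid transfer protein, which moves phospholipid between lipoproteins. Its values were 10.98, 10.90, 10.92 and 10.96 without acLDL and 11.42, 11.42, 11.38 and 11.38 with it. The 2 groups lay 0.39 apart, and Pltp was 1.37-fold higher (95% interval 1.26 to 1.50; log2 difference 0.46 ± 0.06 SE; limma adjusted p = 7.20e-05).

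Apoe encodes apolipoprotein E, a secreted acceptor of cellular cholesterol that macrophages make in quantity. Its log2 values were 12.69, 12.54, 12.55 and 12.59 in unloaded arrays 1 to 4 and 12.92, 12.93, 12.89 and 12.93 in acLDL arrays 1 to 4. Unloaded array 1 was closest to the loaded cells and still lay 0.20 below them. The rise was small, 1.26-fold (95% interval 1.15 to 1.37; log2 difference 0.33 ± 0.06 SE; limma adjusted p = 0.00129), rank 1216 among the rises.

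Lpl encodes lipoprotein lipase, which splits triglyceride in lipoproteins. Unloaded arrays read 12.29, 12.23, 12.31 and 12.34, and acLDL arrays read 12.57, 12.65, 12.63 and 12.62. The groups were 0.23 apart. Lpl was 1.25-fold higher (95% interval 1.15 to 1.37; log2 difference 0.33 ± 0.06 SE; limma adjusted p = 0.00114). The changes of Apoe and Lpl differed by 0.00 ± 0.04 (SE; 95% interval -0.10 to 0.10; exact permutation p = 0.971 before and after adjustment over the 2 pairs compared), so that a difference in change beyond 0.10 on the log2 scale lies outside the interval.

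Smpdl3a and Lpcat3 did not pass the test. Smpdl3a encodes a secreted phosphodiesterase related to acid sphingomyelinase and is known as an LXR target in human cells. Its values were 10.79, 10.59, 10.58 and 10.62 in unloaded arrays and 10.54, 10.49, 10.47 and 10.46 in acLDL arrays. All 4 acLDL arrays lay below all 4 unloaded arrays, by 0.03 at the nearest point. The log2 difference was -0.15 ± 0.07 (SE; 95% interval -0.29 to -0.01; limma adjusted p = 0.115), and it was -0.10 without unloaded array 1, the high one. It passed under repeated quantile normalisation (limma adjusted p = 0.0350) and with a trended robust prior (limma adjusted p = 0.0239), and its adjusted p ran up to 0.337 over all alternatives. The 95% interval, which is not adjusted for the number of genes, lies below 0.

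Lpcat3 encodes a lysophospholipid acyltransferase that puts polyunsaturated chains into membrane phospholipid. Its values were 9.56, 9.24, 9.38 and 9.51 in unloaded arrays and 9.50, 9.44, 9.30 and 9.36 in acLDL arrays. The unloaded group spread over 0.33 and enclosed every acLDL array. The log2 difference was -0.02 ± 0.08 (SE; 95% interval -0.19 to 0.15; limma adjusted p = 0.876). A change of more than 1.11-fold upward lies outside that interval. Its sign turned in 4 alternatives, and it was 0.09 without unloaded arrays 1 and 4 and -0.14 without unloaded arrays 2 and 3.

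**Figure D2:**
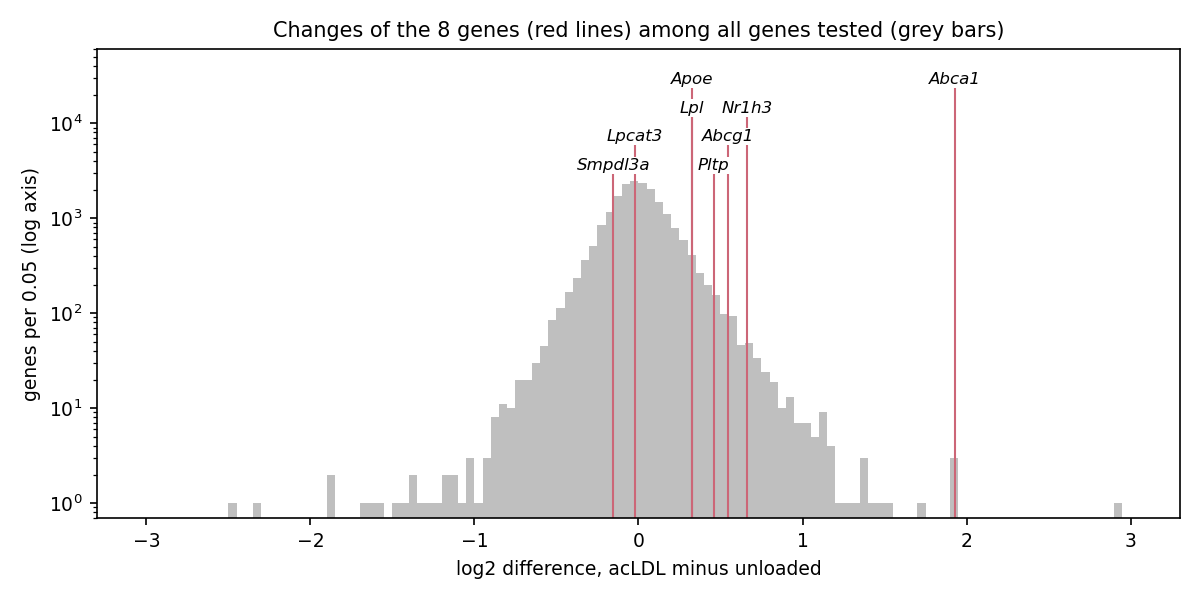
Histogram of the log2 difference (acLDL minus unloaded) of all 19938 genes, on a log axis, with red lines at the 8 measured genes. Abca1 stands at 1.93 among the few largest rises, Nr1h3, Abcg1, Pltp, Apoe and Lpl lie between 0.33 and 0.66 on the right shoulder, and Lpcat3 and Smpdl3a at -0.02 and -0.15 lie in the bulk.

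Unloaded arrays varied more than acLDL arrays in all 8 of these genes, which was also so in 63.6% of all genes. Unloaded arrays 1 and 4 held the highest unloaded value in 4 genes each. Array 2 held the lowest unloaded value in 5 genes and array 3 in the other 3. Array 1 was the high one in Apoe, Pltp, Smpdl3a and Lpcat3, and array 4 in Abca1, Abcg1, Nr1h3 and Lpl. Leaving out either pair of unloaded arrays kept the same 6 genes past the threshold, with Abca1 at 1.86 to 1.99 and Apoe at 0.28 to 0.38 on the log2 scale over all alternatives run. Removing each array's trend with the genomic span of the gene left Abca1 at 1.93, Abcg1 at 0.56 and Apoe at 0.30.

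**Figure D3:**
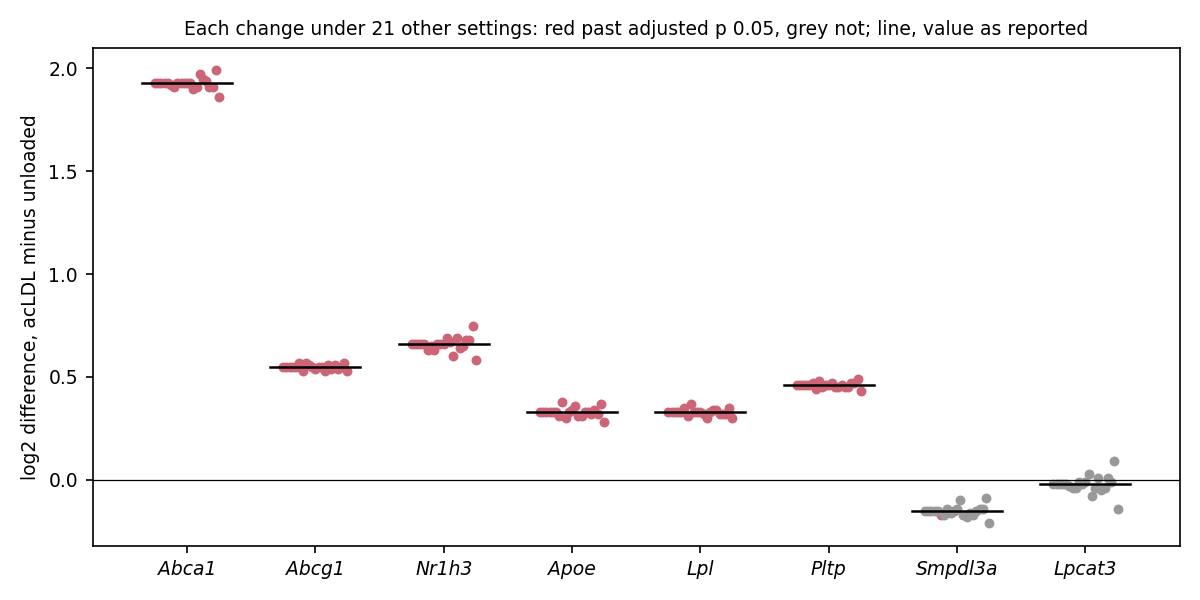
Log2 difference (acLDL minus unloaded) of each gene under 21 alternatives (points, red where the adjusted p was under 0.05 and grey where not) and as reported (black line). The 6 genes that rose stayed red throughout, Smpdl3a was red in 2 alternatives, and Lpcat3 straddled 0 between -0.14 and 0.09.

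Cell type markers were read beside these changes. All 8 macrophage markers lay above 6.12, the 95th percentile of 1027 olfactory receptor genes taken as background, with Cd68 the brightest at 12.89. Their levels summed on the linear scale ran from 20300 to 21700 in unloaded and from 21800 to 22600 in acLDL arrays, and 4 of the 8 rose and 1 fell. Over all genes tested 12.9% were higher and 10.5% lower. Mertk was among the markers that rose and is also counted among the other reported LXR targets below. Fibroblast markers were also present, 4 of 5 above background and led by Dcn at 10.61. Fibroblasts too can express Apoe and Lpl. The fibroblast sum was 3540 to 4340 in unloaded and 3160 to 3560 in acLDL arrays, with 0 of 5 markers higher and 2 lower. Adipocytes are another known source of Lpl, and of their 3 measured markers 1 lay above background, Plin1 at 6.21, and 0 changed. In the T cell, B cell, neutrophil, mast cell, eosinophil, mesothelium, endothelium and dendritic cell lists the brightest markers were Cd3e at 6.41, Cd79b at 6.07, Camp at 5.91, Tpsb2 at 6.30, Siglecf at 7.67, Wt1 at 7.51, Kdr at 7.05 and Zbtb46 at 6.60. Of these lists 0 had a higher marker. Siglecf fell by 0.60 (log2; limma adjusted p = 8.99e-05), Kdr by 0.29 (limma adjusted p = 0.00808), and the neutrophil genes Ly6g and Camp, both under background, by 0.32 and 0.26 (limma adjusted p = 0.0130 and 0.0148). The other eosinophil markers, Prg2 and Epx, differed by -0.02 and 0.15 (log2). The other endothelial markers, Cdh5 and Pecam1, differed by -0.10 and 0.02 (log2). All of these lay under background and did not pass. The summed level of the eosinophil list, which Siglecf leads, was 322 to 364 in unloaded and 246 to 271 in acLDL arrays. That of the endothelial list was 234 to 256 and 200 to 225, and that of the neutrophil list 229 to 261 and 216 to 235. The part of a shift in the cells present in these changes was not tested.

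Partners of the receptors rose in part. Among 11 measured partners and coregulators 5 rose, 1 fell and 5 did not pass, with a median log2 difference of 0.12. Changed genes made up 54.5% of this list and 23.3% of all genes. With only genes above background tested, 6 of 10 in this list changed, against 38.5% of all such genes. Rxra, the retinoid X receptor that pairs with LXR, read 8.16, 7.93, 7.88 and 7.82 in unloaded and 8.54, 8.53, 8.45 and 8.52 in acLDL arrays. The groups did not overlap, and Rxra was 1.48-fold higher (log2 difference 0.56 ± 0.07 SE; limma adjusted p = 0.000119). Rxrb rose by 0.28 ± 0.07 (log2, SE; limma adjusted p = 0.00960, and 0.0658 without unloaded arrays 2 and 3). Rxrg stood at 4.77 and 4.89, below background, and did not pass.

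Tbl1x, a subunit of the corepressor complex that also serves in exchange of corepressor for coactivator, rose by 0.60 ± 0.07 (log2, SE; limma adjusted p = 4.92e-05), with unloaded values of 8.38 to 8.64 and acLDL values of 9.09 to 9.16. The coactivator genes Ncoa3 and Ncoa2 rose by 0.29 and 0.18 on the log2 scale. The call of Ncoa2 (limma adjusted p = 0.0440) was lost in 12 of 21 alternatives, where the highest adjusted p was 0.122. The gene that fell was Hdac3, the histone deacetylase of the corepressor complex, by 0.18 ± 0.06 (log2, SE; limma adjusted p = 0.0469). That call was lost in 11 of 21 alternatives, the highest adjusted p being 0.138. Ncoa2 and Hdac3 fall outside the rule for named genes and were picked with their values in view.

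Genes that make or consume LXR ligands were read as oxysterol supply. Of the 7 measured, 0 rose, 2 fell and 5 missed the threshold, and the median log2 difference was -0.06. Changed genes made up 28.6% of the list, against 23.3% of all genes. With only genes above background tested, 1 of 5 in this list changed, against 38.5% of all such genes. Cyp7b1, an oxysterol hydroxylase, and Cyp46a1, which hydroxylates cholesterol, did not pass (log2 differences 0.23 and 0.16, limma adjusted p = 0.274 and 0.0906). They lay near background, at 6.09 and 6.17 in unloaded and 6.32 and 6.34 in acLDL arrays. Each passed as higher in 1 of 21 alternatives. For Cyp7b1 that was the replicate block (0.23, limma adjusted p = 0.0361). For Cyp46a1 it was the fit without unloaded arrays 2 and 3 (0.23, limma adjusted p = 0.0414). Both genes were picked with their values in view. Hsd3b7, which oxidises hydroxylated sterols on the way to bile acids, read 9.33 to 9.36 in the 4 unloaded and 8.89 to 8.97 in the 4 acLDL arrays. It fell by 0.41 ± 0.06 (log2, SE; limma adjusted p = 0.000144). Ch25h, which makes an oxysterol from cholesterol, stood at 5.57 ± 0.10 and 5.32 ± 0.12 (log2, SD, n = 4), both under background, and its fall of 0.25 (limma adjusted p = 0.0289) was lost in 8 of 20 alternatives with an adjusted p of up to 0.125. Cyp27a1, which oxidises the side chain of cholesterol, stood at 8.15 ± 0.10 and 8.05 ± 0.05 (log2, SD, n = 4; limma adjusted p = 0.288) and did not pass. It falls outside the rule for named genes.

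Among 14 other reported LXR targets 5 rose, 3 fell and 6 did not pass, with a median log2 difference of 0.01. Of those that did not pass, Abcg5, Abcg8, Apoc1 and Cyp7a1 lay under background in both groups. Changed genes made up 57.1% of this list, against 23.3% of all genes (12.9% higher and 10.5% lower). With only genes above background tested, 8 of 10 in this list changed, against 38.5% of all such genes. Those that rose include Cd5l, a secreted survival factor of macrophages, which went from 6.31 to 7.01 in unloaded to 9.45 to 9.60 in acLDL arrays (log2 difference 2.93 ± 0.12 SE; limma adjusted p = 4.03e-09), the largest rise of all genes tested. Mylip, which marks lipoprotein receptors for degradation, rose from 7.49 to 7.67 to 8.48 to 8.58 (log2 difference 0.91 ± 0.06 SE; limma adjusted p = 6.18e-07), rank 57. Both rose by more than Abcg1, Pltp, Apoe and Lpl on this scale, though these differences were not tested. The 3 that fell, Scd1, Scd2 and Fasn, make or desaturate fatty acids and are also controlled by the sterol-regulated SREBP factors. Scd1 and Scd2 fell by 0.77 and 0.57 on the log2 scale, to adjusted p of 0.000118 and 0.000502 in limma. Srebf1, the gene of an SREBP factor and on the same list, rose by 0.21 ± 0.06 (log2, SE; limma adjusted p = 0.0189). That call was lost in 3 of 21 alternatives. The part of SREBP factors in the 3 falls was not tested. Apoc1 and Apoc4, which lie beside Apoe in the genome, differed by 0.03 ± 0.11 and -0.16 ± 0.07 (log2, SE; limma adjusted p = 0.861 and 0.122) and did not pass, and Apoc1 was under background at 5.06 and 5.10. They fall outside the rule for named genes, as do Fasn, Srebf1, Abcg5, Abcg8 and Cyp7a1.

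Sterol handling and export outside the set made up the last list. Of its 11 measured genes 0 rose and 2 fell, 9 missed the threshold, and the median log2 difference was -0.04. The changed share was 18.2%, against 23.3% of all genes. With only genes above background tested, 2 of 10 in this list changed, against 38.5% of all such genes. Lcat, which esterifies cholesterol on lipoproteins and was picked with its values in view, did not pass (log2 difference 0.24, limma adjusted p = 0.12). Its means lay near background, at 6.08 in unloaded and 6.33 in acLDL arrays. Lcat passed as higher in 2 of 21 alternatives. These were without unloaded array 2 (0.35, limma adjusted p = 0.0205) and without unloaded arrays 2 and 3 (0.45, limma adjusted p = 0.00297). Stard4, a carrier of free cholesterol in the cytosol and a known SREBP2 target, fell by 1.33 ± 0.08 (log2, SE; limma adjusted p = 1.31e-07), from 8.02 to 8.34 in unloaded to 6.69 to 6.96 in acLDL arrays. Lipa, the lysosomal lipase that frees cholesterol from lipoprotein esters, fell by 0.27 ± 0.06 (log2, SE; limma adjusted p = 0.00447). The other exporters did not pass. Scarb1, a receptor for high-density lipoprotein, differed by 0.08 (95% interval -0.08 to 0.23), Abca7 by 0.08 (-0.07 to 0.22) and Abcg4 by 0.02 (-0.14 to 0.19), all on the log2 scale and picked with their values in view.

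**Figure D4:**
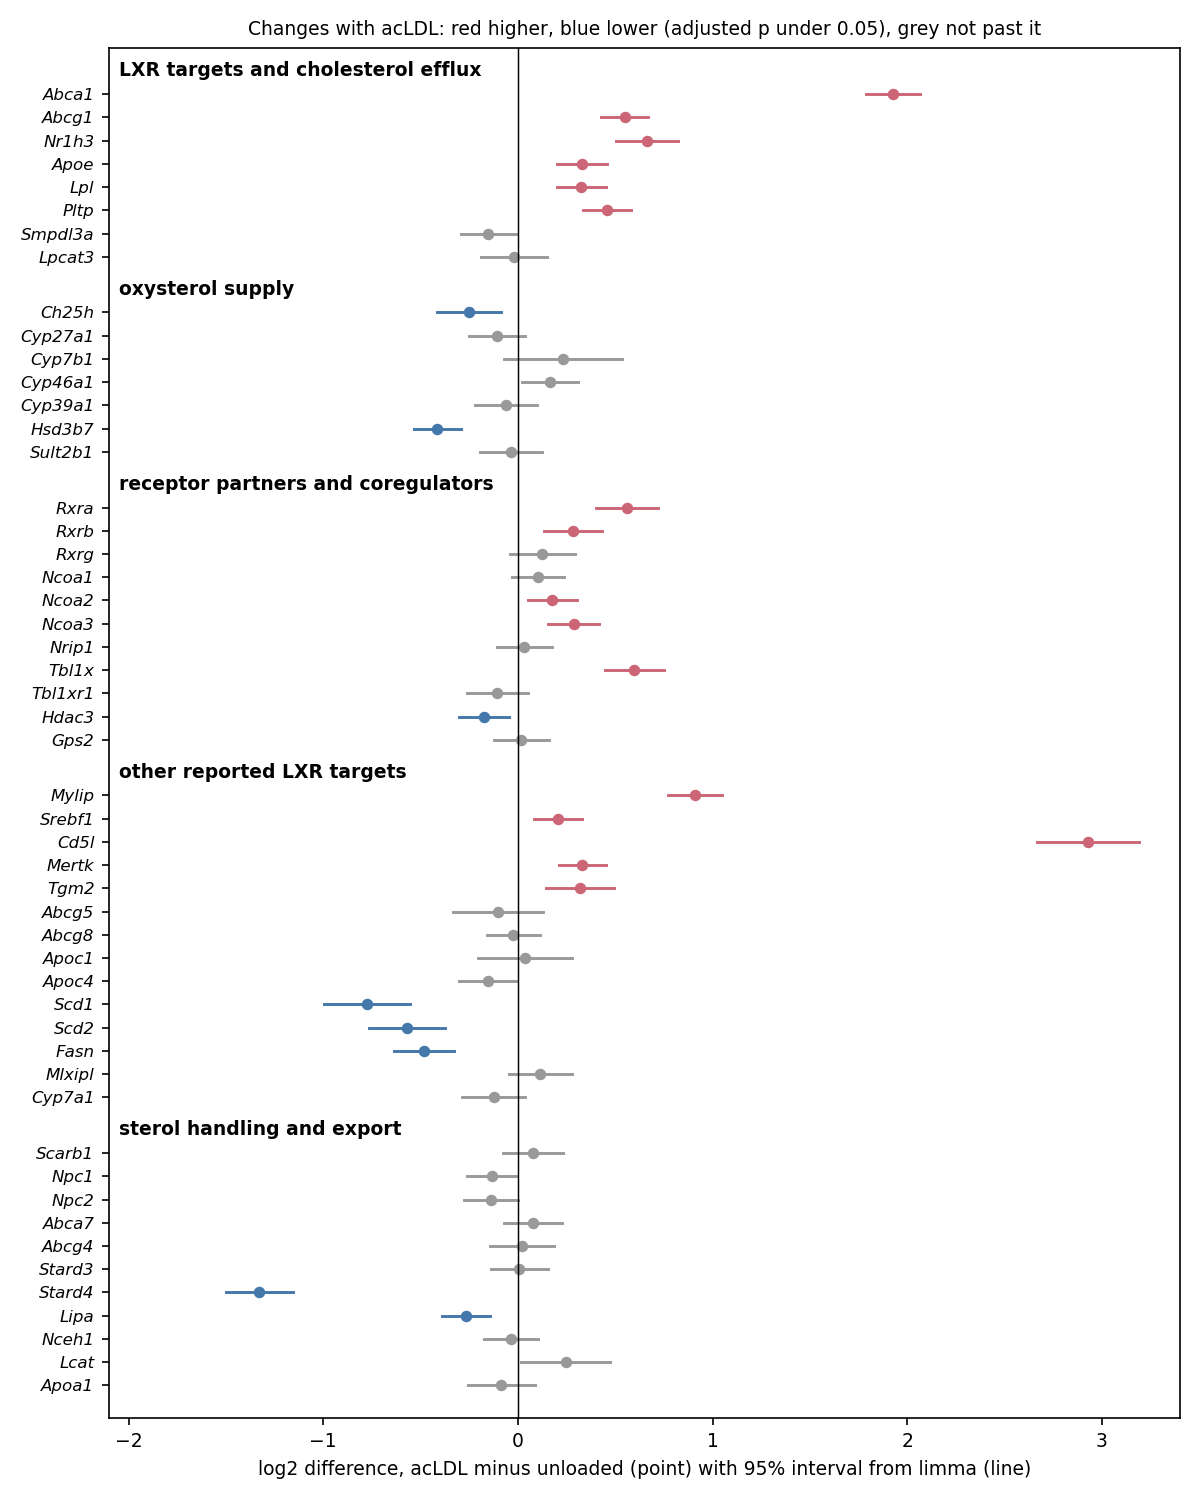
Log2 difference (acLDL minus unloaded) with its 95% interval for the 8 measured genes and for every measured gene of the 4 pathway lists, red where higher and blue where lower at an adjusted p under 0.05. Rises fill most of the first block and stand in the partner and target lists, while the oxysterol and sterol handling lists hold 2 falls each and 0 rises.

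Outside the set and the pathway lists, the genes whose profile over the 8 arrays came nearest to Abca1, by root mean square distance of log2 values centred on each gene's mean, were Folr2, a folate receptor, at 0.109, the complement gene C1qa at 0.166, the glutathione transferase gene Gstp1 at 0.211 and C1qb at 0.220. No other gene of the set came nearer to Abca1 than Nr1h3, at 0.639. The nearest profiles to Nr1h3 were those of Kcnk13, a potassium channel gene, at 0.0436, the mitochondrial ribosomal gene Mrpl54 at 0.0437, the phosphatase activator gene Ptpa at 0.0471 and Myc at 0.0482. Within the set Abcg1 was nearest to Nr1h3, at 0.0920, followed by Pltp at 0.128. These distances mainly follow the size of the step between the groups. The Gstp1 reading is uncertain, because Gstp2 has almost the same sequence and may share its probes.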

How the data were processed

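Total RNA of 8 macrophage cultures, 4 unloaded and 4 with acLDL, was read on 1 array each. The authors deposited log2 values summarised per probe set with RMA (robust multi-array averaging), as the submitters' processing notes say, and the sources used here give no version or settings. RMA matches the distributions of arrays and compresses changes of dim genes. Of 35557 probe sets 23410 were in the annotation used here, 21789 with 1 gene symbol. A gene with several probe sets (999 genes) was represented by the one with the highest mean, which left 19938 genes.

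Differences were coded acLDL minus unloaded and fitted with limma 3.58.1 in R 4.3.3 (lmFit, eBayes, two-sided), with no block, Benjamini-Hochberg adjustment over all 19938 genes and a threshold of 0.05. The code of this step was run on simulated data, where recovery was required only of changes larger than most of those reported here. Deviations of arrays with equal replicate numbers correlated at 0.11, -0.16, 0.30 and 0.14, so the numbers were not taken to pair cultures. No 2 arrays were identical, and correlations across genes were 0.994 to 0.997 within and 0.989 to 0.991 between groups. The number of arrays limits the precision, and the median SE was 0.0737.

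For 2 genes, changes were set against each other in an exact permutation test (two-sided). Of 4 planned pairs 2 were run, since Nr1h2 and Arl4c were not matched. The genes, lists and tests were chosen with earlier results of these data known. Named genes were the set, up to 4 changed genes of each pathway list with the largest change, the 4 nearest profiles to Abca1 and to Nr1h3, and the brightest marker of each cell type. Promoter and miRNA sequences are RefSeq's, build GRCm38.p6, with a window for 7 of the 10 genes. Alternatives were a replicate block, other choices of probe sets, a filter on dim genes, other normalisations, other variance models and leaving out arrays.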

Additional observations from a re-analysis of the deposited data

Results flagged for a closer look

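Single arrays stood apart from the other 3 of their group in 3 of 56 groups examined (28 genes), where the gap to the nearest array, over the range of the group, exceeded Dixon's 95% critical value. Chance gives about 1 in 20. Mylip was at 7.49 in unloaded array 3, with the other unloaded arrays at 7.65 to 7.67. Lipa was at 12.46 in acLDL array 3, against 12.42 in the others. C1qb was at 11.12 in acLDL array 3, against 11.18 in the others. These gaps were small beside the changes of these genes between groups.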

How the results depend on the processing

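The same 6 genes (Abca1, Abcg1, Nr1h3, Apoe, Lpl and Pltp) rose in each of the 21 alternatives, and 7 genes changed under repeated quantile normalisation and with a trended robust prior, where Smpdl3a passed as lower. The replicate block gave 6 changed genes too, and over all genes 4860 calls against 4650. All 35557 deposited probe sets together gave 7603 calls, 21.4% against 23.3%, with 3565 higher and 4038 lower in place of 2565 and 2085. Leaving out each array in turn gave 6 genes each time. In the oxysterol list the 2 changed genes became 1 with every deposited probe set, with the filter on dim genes, under repeated quantile normalisation, under cyclic loess and without unloaded arrays 1 and 4, and 1 to 2 when each array was left out. It was 1 without unloaded array 4 and without acLDL array 1, 3 or 4. The filter on dim genes left Ch25h out of the test. The oxysterol count was 3 with the replicate block and without unloaded arrays 2 and 3, each with 1 gene higher (Cyp7b1 and Cyp46a1). In the sterol handling list 4 genes fell with the trended robust prior. It held 2 to 3 changed genes when each array was left out, 2 of them lower each time, and the third was a rise of Lcat without unloaded array 2. The counts of the partner list (4 to 6) and of the target list (7 to 9) stayed within 1.5 times. Allowing 3 differences in the DR4 match gave 2 genes with a match, Abca1 and Arl4c, in place of 0, and the looser search alone adds matches. The excess of Abca1 over Abcg1 ran from 1.33 to 1.42 and the difference between Apoe and Lpl from -0.03 to 0.04. With an array left out, or paired by replicate number, the permutation tests cannot go below 0.0571 and 0.125, so those fits are values without a test. The cause of these shifts was not tested. Ch25h, Cyp39a1, Rxrg, Abcg5, Abcg8, Apoc1 and Cyp7a1 lay under background, where small changes cannot be resolved.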

Other observations

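The gene of SREBP2, Srebf2, hosts in an intron the hairpin of miR-33, a microRNA known to bind the Abca1 transcript. Both were chosen after their values were seen. The mature strand known for this is shown 5′ to 3′ with its seed, bases 2 to 8, in capitals (RefSeq, GRCm38.p6, chr15:82198127-82198147, plus strand).
mmu-miR-33-5p: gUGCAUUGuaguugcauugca
Srebf2 read 9.70, 9.68, 9.70 and 9.72 in unloaded and 8.91, 8.85, 8.79 and 8.93 in acLDL arrays, a fall by 0.83 ± 0.06 (log2, SE; limma adjusted p = 6.79e-07). The probe set of Mir33 read 3.66 to 3.96 in unloaded and 3.84 to 4.09 in acLDL arrays (log2 difference 0.15 ± 0.08 SE; limma adjusted p = 0.232), below 4.44, the median of the olfactory receptor genes. The level of miR-33 itself could not be read from this array.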
